A study of Rattus norvegicus with 24 samples.

Results

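The oxidative stress defence genes described here were 4 genes chosen by name and Ensembl ID: Hmox1 (ENSRNOG00000014117), Nqo1 (ENSRNOG00000012772), Gclc (ENSRNOG00000006302) and Gclm (ENSRNOG00000012973). All 4 IDs were among the 32754 gene rows of the count table, 3 of them had counts, and the row given for Gclm was at 0 in every library. RNA was sequenced from rat cortical cells, described by the submitters as primary neuronal cultures, in a study of excitotoxicity, in which too much glutamate injures neurons. Cultures were given the code-named agent IS141, AH609 or AH236, or the solvent DMSO as the control. After 8 days in culture the medium was replaced by medium with 250 μM glutamate or by fresh growth medium, and the wells were imaged for 4 h. The 8 groups were therefore IS141 with glutamate, AH609 with glutamate, AH236 with glutamate, DMSO with glutamate, and the same 4 treatments in medium, with 3 libraries in each. The sources used here give no dose or timing for the agents, no age or strain of the animals, no time of RNA extraction, and no statement of what the agents are. Nothing says that the 3 libraries of a group came from separate cultures, so p-values reflect only how far these libraries varied, and part of that variation may be technical.

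Cells meet oxidative stress with a set of enzymes that share a control circuit. The transcription factor Nrf2 is held in the cytoplasm and degraded by its partner Keap1, and when oxidants or electrophiles modify Keap1, Nrf2 enters the nucleus and binds antioxidant response elements, short DNA motifs near its target genes. Hmox1 encodes haem oxygenase 1, the inducible enzyme that breaks haem down to biliverdin, iron and carbon monoxide, and the repressor Bach1 also acts on it. Nqo1 encodes a quinone reductase that uses NADH or NADPH to reduce quinones without passing through a semiquinone. Gclc and Gclm encode the catalytic and modifier subunits of glutamate-cysteine ligase, the rate-limiting enzyme of glutathione synthesis. In brain, astrocytes carry much of the Nrf2-driven defence and neurons comparatively little.

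The 24 libraries held between 22509400 and 35496447 counts. Principal components were taken from log2 CPM, counts scaled to the library total with the TMM correction for library composition. The second component carried 4.72% of the variance. DMSO replicate 1 in medium stood apart from all other libraries on it, with a score of -48.0 against -12.8 to 19.7 elsewhere. It also had the highest Nqo1 and the highest Gclc level of the 24 libraries. The files do not pair gene IDs with symbols, so marker genes of neurons, astrocytes or other cells could not be looked up and the cell makeup of the cultures was not checked. In bulk RNA, fewer cells of a type and less RNA per cell cannot be told apart.

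The first question was what glutamate did to these genes. Hmox1 rose 3.02-fold and Gclc fell to a 0.746-fold level over all 4 treatments, while the change of Nqo1 did not pass the test. Of the 3 tested members, 2 were thus called in the glutamate comparison of every treatment, Hmox1 higher and Gclc lower. Over all genes tested 59.1% were called with IS141, 61.3% with AH609, 60.6% with AH236, 59.1% with DMSO and 78.4% over all 4 treatments. At 2 of 3, the share of members called is near this background.

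Hmox1 was higher with glutamate under every treatment, and all 12 glutamate libraries lay above all 12 medium libraries. The levels below are CPM after TMM scaling, a correction for library composition. With IS141, Hmox1 had 4.98, 4.98 and 5.09 CPM in glutamate, against 1.15, 1.33 and 1.08 CPM in medium. With AH609 it had 4.33, 3.95 and 3.77 CPM in glutamate, against 2.20, 0.594 and 0.923 CPM in medium. AH609 replicate 1 in medium was thus the highest of the medium libraries and AH609 replicate 2 the lowest. With AH236 the levels were 2.84, 2.56 and 3.80 CPM in glutamate, against 1.10, 0.894 and 1.01 CPM in medium. With DMSO they were 3.23, 2.65 and 2.40 CPM in glutamate, against 1.42, 1.29 and 1.53 CPM in medium. The 2 media did not overlap in any treatment, and the share of all genes separated in this way within a treatment was not computed. These levels rest on 56 to 140 counts a library in glutamate and 16 to 55 in medium.

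Over all 4 treatments Hmox1 rose with glutamate by a log2 fold change of 1.59 ± 0.12 (SE), a 3.02-fold difference (edgeR quasi-likelihood test, adjusted p = 8.29e-12, higher in 12 of 12 libraries). By treatment the log2 fold change was 2.08 ± 0.24 (SE) with IS141 (adjusted p = 5.66e-08), 1.71 ± 0.25 (SE) with AH609 (adjusted p = 1.81e-06), 1.63 ± 0.26 (SE) with AH236 (adjusted p = 4.49e-06) and 0.96 ± 0.25 (SE) with DMSO (adjusted p = 0.00162). In linear terms this was 4.22-fold with IS141 and 1.94-fold with DMSO. The AH609 value was 2.40 without AH609 replicate 1 in medium, 1.36 without replicate 2 and 1.54 without replicate 3, and it passed the test each time. A rise was common among all genes, since 38.8% of the 15908 genes tested were called higher over all 4 treatments and 16.7% had all 12 glutamate libraries above all 12 medium libraries. By size the Hmox1 rise over all 4 treatments was less common, with 5.33% of the genes tested changing by more in either direction. By treatment this share was 2.63% with IS141, 5.48% with AH609, 6.08% with AH236 and 14.6% with DMSO, the control.

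Nqo1 showed no change with glutamate that passed the test. With IS141 it had 0.595, 0.491 and 1.05 CPM in glutamate, against 1.15, 0.996 and 0.823 CPM in medium. With AH609 it had 0.652, 0.578 and 0.772 CPM in glutamate, against 0.559, 1.11 and 1.12 CPM in medium. The media overlapped in both treatments. With AH236 the levels were 0.468, 0.732 and 0.669 CPM in glutamate, against 0.366, 0.475 and 0.652 CPM in medium, and with DMSO 1.04, 0.709 and 0.563 CPM in glutamate, against 1.59, 0.751 and 0.767 CPM in medium. The groups overlapped again, and DMSO replicate 1 in medium was far above the other 2 libraries of its group. Over all 4 treatments the log2 fold change was -0.26 ± 0.18 (SE; edgeR adjusted p = 0.179), with a 95% interval from -0.63 to 0.10. It was -0.16 without DMSO replicate 1 in medium. By treatment it was -0.47 with IS141, -0.46 with AH609, 0.31 with AH236 and -0.43 with DMSO, with adjusted p-values between 0.25 and 0.513, and the DMSO value was 0.0073 without DMSO replicate 1 in medium. Under scaling by library totals, where the median of all genes shifts to -0.19, the fall over all 4 treatments was -0.45 and passed the test (adjusted p = 0.0252).

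With 11 to 47 counts a library, counting alone gives Nqo1 a coefficient of variation of 18.0% to 25.3% by group, and the observed values ran from 14.7% to 46.1%. For Gclc, with 486 to 1058 counts, counting gives 3.20% to 4.13%, and the observed values ran from 1.18% to 9.23%. The highest Nqo1 value, 46.1%, was that of the DMSO cultures in medium. For Hmox1 counting gives 8.60% to 17.8%. The observed Hmox1 values ran from 1.21%, for IS141 in glutamate, to 68.4%, for AH609 in medium.

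Gclc was lower with glutamate under every treatment, and all 12 glutamate libraries lay below all 12 medium libraries. With IS141 it had 22.4, 22.3 and 20.5 CPM in glutamate, against 29.6, 29.8 and 29.2 CPM in medium. With AH609 it had 22.6, 23.4 and 23.5 CPM in glutamate, against 28.4, 31.1 and 28.3 CPM in medium. The gap between the media was larger than the spread within each of these groups. With AH236 the levels were 21.9, 23.8 and 24.5 CPM in glutamate, against 28.4, 29.6 and 29.9 CPM in medium. With DMSO they were 22.8, 20.1 and 19.8 CPM in glutamate, against 34.6, 29.2 and 30.2 CPM in medium. The DMSO cultures thus held the lowest glutamate library and the highest medium library.

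Over all 4 treatments Gclc fell with glutamate by 0.42 ± 0.03 on the log2 scale (SE; edgeR adjusted p = 1.5e-11, lower in 12 of 12 libraries), to a 0.746-fold level. The log2 fold change was -0.44 ± 0.07 (SE) with IS141 (adjusted p = 4.1e-06), -0.34 ± 0.07 (SE) with AH609 (adjusted p = 0.000142), -0.32 ± 0.07 (SE) with AH236 (adjusted p = 0.000185) and -0.59 ± 0.07 (SE) with DMSO (adjusted p = 4.18e-08). Without DMSO replicate 1 in medium the DMSO value was -0.51. In size the fall over all 4 treatments was an ordinary change in these data. Over all 4 treatments 39.6% of the genes tested were called lower, 18.1% had all 12 glutamate libraries below all 12 medium libraries, and 43.8% changed by more than Gclc in either direction. By treatment the share changing by more was 42.6% with IS141, 54.9% with AH609, 55.8% with AH236 and 30.7% with DMSO, the control. Scaling by library totals made the fall over all 4 treatments 0.61 on the log2 scale, with the median of all genes at -0.19.

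**Figure D1:**
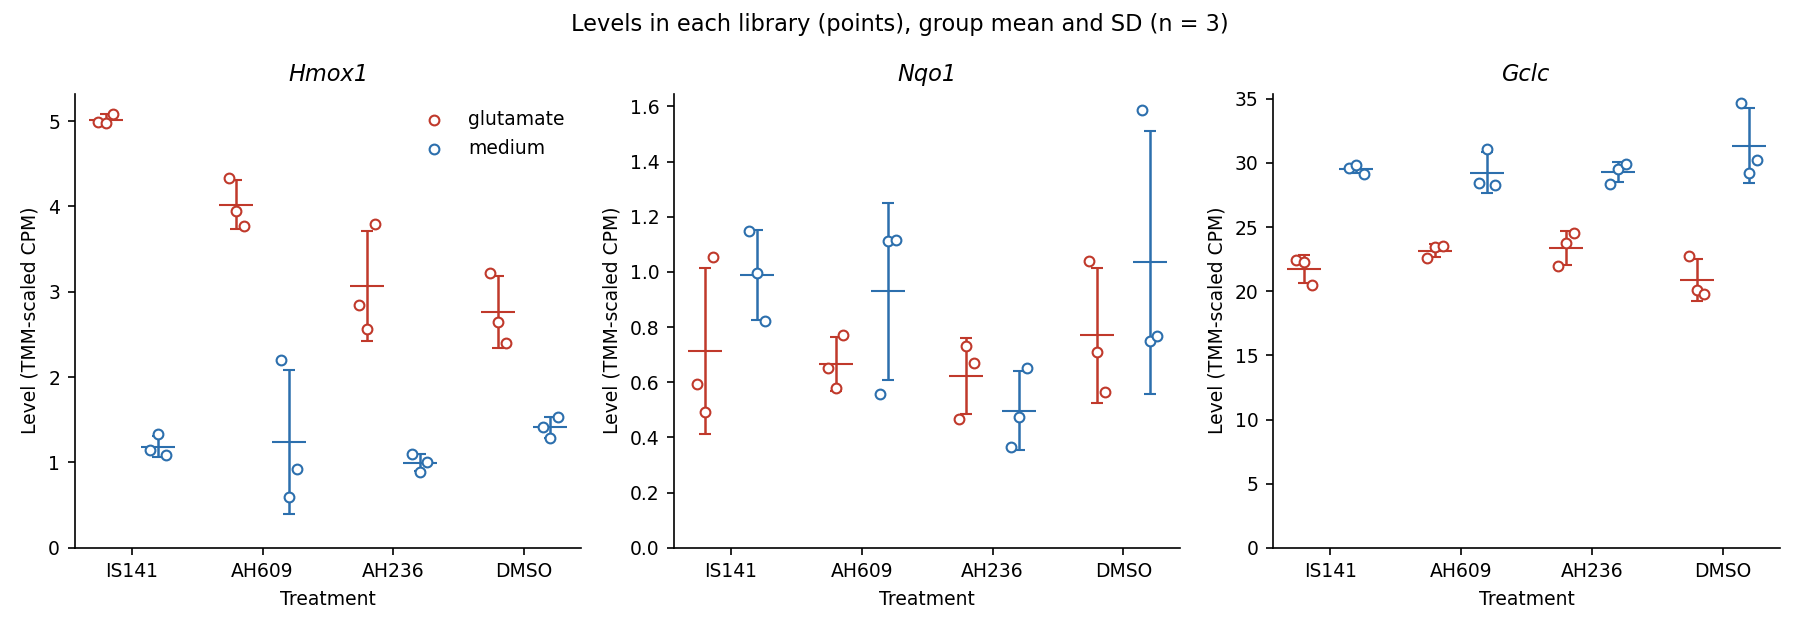
Levels of Hmox1, Nqo1 and Gclc in each of the 24 libraries as TMM-scaled CPM, with treatments on the horizontal axis, glutamate libraries in red left of medium libraries in blue, and bars for the group mean and SD (n = 3). All red Hmox1 points lie above the blue ones, all red Gclc points lie below them, and the Nqo1 points overlap.

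**Figure D2:**
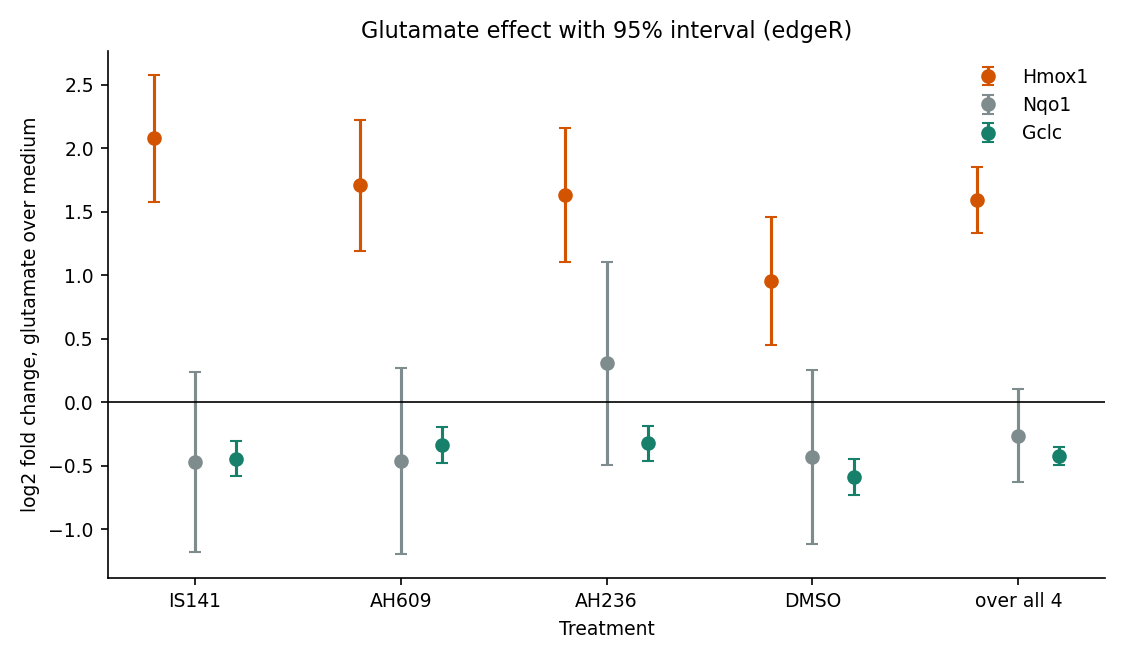
Log2 fold change of glutamate over medium for each gene by treatment and over all 4 treatments, with 95% intervals from edgeR. Every Hmox1 interval is above 0, every Gclc interval is below 0, and every Nqo1 interval spans 0.

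The row given for Gclm held 0 counts in all 24 libraries. A count of 0 allows up to 3 counts, which is between 0.0845 and 0.133 CPM of a library's total, counting error only. No file used here pairs a gene ID with a symbol, so that the row stands for Gclm rests on the given pairing alone. The same holds for the rows of Hmox1, Nqo1 and Gclc. Rows without counts were not rare, and 21.6% of the rows of the table were at 0 in every library. Since the pairing was not checked, the 0 counts do not show that Gclm RNA was absent from the cultures. The row did not enter the tests, no value was assigned to the modifier subunit, and the planned comparison of the glutamate effect on the 2 subunits could not be made.

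Promoter sequences from RefSeq (build GRCr8; the counts were made on Rnor_6.0) were found by symbol for 3 of the 4 genes, Nqo1, Gclc and Gclm. The 250 bases before the start of Gclc and Gclm, the 2 subunits of glutamate-cysteine ligase, are shown because Gclc carried the fall above and Gclm was the member with a motif match. Capitals mark a match to the antioxidant response element, searched as TGACNNNGC on both strands. Both genes lie on the plus strand, Gclc at chr8:87510226-87510475 and Gclm at chr2:213031885-213032134.
Gclc: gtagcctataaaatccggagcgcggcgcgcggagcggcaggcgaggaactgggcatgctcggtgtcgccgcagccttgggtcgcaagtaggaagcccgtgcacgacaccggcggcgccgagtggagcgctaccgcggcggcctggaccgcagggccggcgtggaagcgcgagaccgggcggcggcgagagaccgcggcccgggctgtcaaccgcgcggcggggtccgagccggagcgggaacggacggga
Gclm: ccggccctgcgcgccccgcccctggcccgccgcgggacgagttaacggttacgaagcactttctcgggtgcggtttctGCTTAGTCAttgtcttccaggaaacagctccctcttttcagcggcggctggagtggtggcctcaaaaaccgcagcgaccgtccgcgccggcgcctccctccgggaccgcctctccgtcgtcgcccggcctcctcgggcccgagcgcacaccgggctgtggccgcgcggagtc
The Gclm window held 1 match, reading TGACTAAGC on the strand opposite to the gene, beginning 172 bases before its start. The Gclc and Nqo1 windows held 0 matches, and 10.1% of 33469 such windows of all genes held at least 1. The related AP-1 motif TGANTCA, searched in the same way, was in 0 of the 3 windows and in 6.34% of all windows. A match is a string of letters and not a site shown to be bound, and elements farther from the start are outside these windows.

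The agents were then compared with DMSO within each medium, which asked whether an agent altered these genes with or without glutamate. In glutamate, IS141 cultures had more Hmox1 than DMSO cultures, at 5.02 ± 0.0606 CPM against 2.76 ± 0.423 CPM (SD, n = 3 each). The IS141 libraries had a coefficient of variation of 1.21%, where counting alone gives 8.60%, so this SD likely understates the spread. The 2 groups did not overlap, but the share of all genes separated in this way, 3 libraries against 3, was not computed. The log2 fold change was 0.87 ± 0.22 (SE), or 1.82-fold (edgeR adjusted p = 0.0134, higher in 3 of 3 libraries). The call was lost without DMSO glutamate replicate 2 (adjusted p = 0.0569) and without DMSO glutamate replicate 3 (adjusted p = 0.0501). This was 1 of 3 tested members, where 8.46% of all genes tested were called and 4.07% were called higher. In size, 1.84% of the genes changed by more than Hmox1 in either direction. Nqo1 and Gclc were not called with IS141 in glutamate, with log2 fold changes of -0.10 ± 0.36 (SE; adjusted p = 0.906) and 0.06 ± 0.07 (SE; adjusted p = 0.658).

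With AH609 in glutamate Hmox1 averaged 4.02 ± 0.287 CPM against 2.76 ± 0.423 CPM with DMSO (SD, n = 3 each). All 3 AH609 libraries lay above the DMSO libraries, again without a share of all genes for such a separation. The log2 fold change of 0.54 ± 0.22 (SE) did not pass the adjusted threshold (edgeR adjusted p = 0.209). With AH236 it averaged 3.07 ± 0.649 CPM, which overlapped the DMSO libraries, and the log2 fold change was 0.17 ± 0.23 (SE; adjusted p = 0.716), with a 95% interval from -0.30 to 0.64. Gclc was at 0.15 ± 0.07 (SE) with AH609 (adjusted p = 0.283) and 0.17 ± 0.07 (SE) with AH236 (adjusted p = 0.139). In each of these comparisons edgeR called 0 of the 3 tested members. At an unadjusted p under 0.05, 2 members passed with AH609 and 1 with AH236. The share of all genes at that threshold was not computed. DESeq2 called 0, and gave no adjusted p for 1 member in each comparison. At the adjusted threshold edgeR called 2.62% of all genes tested with AH609 and 10.3% with AH236.

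In medium edgeR called 0 of the 3 tested members for each of the 3 agents. DESeq2 called 0, and gave no adjusted p for 1 member with IS141 and 1 with AH609. Over all genes tested edgeR called 7.98% with IS141, 3.06% with AH609 and 10.5% with AH236. At an unadjusted p under 0.05 the numbers of members were 0, 0 and 1 in the same order. The share of all genes at that threshold was not computed. The 1 member was Nqo1 with AH236, at 0.366, 0.475 and 0.652 CPM, against 1.59, 0.751 and 0.767 CPM with DMSO. The AH236 libraries lay below the DMSO libraries, and the share of all genes separated in this way was not computed. The log2 fold change was -1.04 ± 0.35 (SE; edgeR adjusted p = 0.0557). This value rested on single libraries. It was -0.60 without DMSO replicate 1 (adjusted p = 0.367), and it passed the threshold without DMSO replicate 2 (-1.21, adjusted p = 0.0298), without DMSO replicate 3 (-1.22, adjusted p = 0.0283) and under scaling by library totals (-1.10, adjusted p = 0.0405). Hmox1 was at -0.26 with IS141, -0.21 with AH609 and -0.51 with AH236 on the log2 scale, with adjusted p-values between 0.273 and 0.788. Gclc was at -0.09 with IS141, -0.10 with AH609 and -0.10 with AH236, with adjusted p-values between 0.391 and 0.505, and the widest of its 95% intervals ran from -0.24 to 0.04. These Gclc values rested on DMSO replicate 1, and without it they were -0.0072 with IS141, -0.022 with AH609 and -0.021 with AH236. Nqo1 was at -0.06 with IS141 and -0.15 with AH609, and at 0.39 and 0.30 without DMSO replicate 1.

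**Figure D3:**
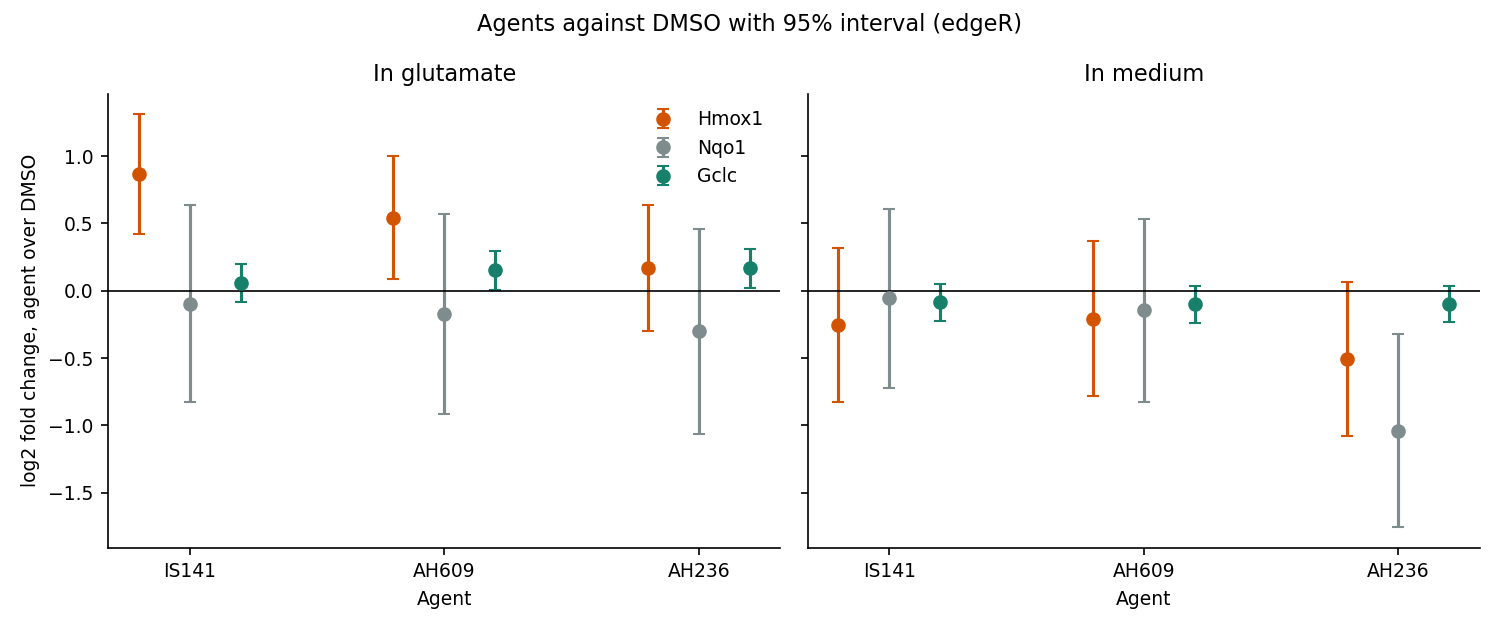
Log2 fold change of each agent over DMSO for Hmox1, Nqo1 and Gclc in glutamate (left) and in medium (right), with 95% intervals from edgeR. Hmox1 with IS141 in glutamate, at 0.87, is the only value called at an adjusted p under 0.05.

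Ordered by mean level, Hmox1 ran from IS141 with glutamate (5.02 CPM) through AH609 (4.02 CPM), AH236 (3.07 CPM) and DMSO with glutamate (2.76 CPM) to the medium groups, DMSO (1.41 CPM), AH609 (1.24 CPM), IS141 (1.19 CPM) and AH236 (0.9995 CPM). The ranges of IS141 and AH609 with glutamate did not overlap, and no share of all genes was computed for such gaps between groups. AH236 with glutamate overlapped both of its neighbours, and the 4 medium groups overlapped each neighbour in turn. For Gclc the order in glutamate was AH236 (23.4 CPM), AH609 (23.2 CPM), IS141 (21.7 CPM) and DMSO (20.9 CPM), and in medium DMSO (31.4 CPM), IS141 (29.5 CPM), AH236 (29.3 CPM) and AH609 (29.3 CPM). Neighbours within a medium differed by less than the sum of their SDs, although the libraries of AH609 and IS141 with glutamate did not overlap. For Nqo1 the 8 group means lay between 0.497 and 1.03 CPM, and no neighbours in the order differed beyond their spread.

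Whether an agent changed the size of the glutamate effect was tested as an interaction with DMSO. No member passed this test. For Hmox1 the log2 fold change with the agent minus that with DMSO came to 1.12 ± 0.35 (SE) in IS141 cultures, 0.75 ± 0.36 (SE) in AH609 cultures and 0.67 ± 0.36 (SE) in AH236 cultures, with edgeR adjusted p-values of 0.17, 0.671 and 0.408. The AH609 value was 1.44 without AH609 replicate 1 in medium and 0.41 without AH609 replicate 2 in medium, so the order of the agents rested on single libraries. For Gclc the same difference was 0.14 ± 0.10 (SE), 0.25 ± 0.10 (SE) and 0.26 ± 0.10 (SE) in the same order, with adjusted p-values of 0.69, 0.54 and 0.172, and without DMSO replicate 1 in medium it was 0.064, 0.17 and 0.19. For Nqo1 the differences were -0.04, -0.03 and 0.74, with standard errors between 0.48 and 0.51. Without DMSO replicate 1 in medium they were -0.48, -0.47 and 0.30, and the AH236 value was 1.02 without DMSO glutamate replicate 1. In these 3 comparisons edgeR called 0 members, and 1, 2 and 1 members had an unadjusted p under 0.05. The share of all genes at that threshold was not computed. DESeq2 called 0, and gave no adjusted p for 1 member with IS141 and 2 with AH236. At the adjusted threshold edgeR calls were rare across all genes too, at 0.779% with IS141, 0.0251% with AH609 and 1.55% with AH236. The 3 comparisons share the DMSO libraries.

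The agents were also set against one another over both media, with 3 pairs of agents compared and p-values adjusted over all genes within each pair. Doses are not given, so these comparisons are of the cultures as treated. edgeR called 0 members in any pair. For AH236 against IS141, Hmox1 was at -0.47 ± 0.18 (SE) on the log2 scale (edgeR adjusted p = 0.0752, unadjusted p = 0.0145) and Nqo1 at -0.59 ± 0.26 (SE) (adjusted p = 0.121, unadjusted p = 0.0302). DESeq2 called Hmox1 in this pair (-0.48, adjusted p = 0.0483), and so did edgeR fitted to these groups alone (-0.47, adjusted p = 0.00943) and under scaling by library totals (-0.53, adjusted p = 0.0437). With 1 library left out Hmox1 was not called in any of 13 fits (edgeR adjusted p between 0.0504 and 0.174). These include the fit without DMSO replicate 1 in medium, a library outside this pair. In the fit of all 24 libraries 16% of all genes were called in this pair. For AH609 against IS141 the members lay between -0.14 and 0.04, and for AH236 against AH609 between -0.51 and 0.01. In both pairs 0 members had an unadjusted p under 0.05, a threshold at which no share of all genes was computed. DESeq2 called 0, and gave no adjusted p for 2 members in the first pair and 1 in the second. At the adjusted threshold edgeR called 2.67% and 0.685% of all genes. For Hmox1 the 95% interval ran from -0.51 to 0.23 for AH609 against IS141 and from -0.71 to 0.04 for AH236 against AH609. The Gclc differences between agents were smaller, with 95% intervals from -0.06 to 0.14 for AH609 against IS141, -0.05 to 0.15 for AH236 against IS141 and -0.09 to 0.11 for AH236 against AH609.

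The members did not share a direction. In glutamate the IS141 cultures had the most Hmox1, at 5.02 ± 0.0606 CPM (SD, n = 3), a spread smaller than counting alone gives. Their Gclc level of 21.7 ± 1.08 CPM (SD, n = 3) lay between those of AH609 and DMSO. The Hmox1 call of IS141 against DMSO was lost without DMSO glutamate replicate 2 or replicate 3. IS141 was not tested against AH609 within glutamate alone.

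**Figure D4:**
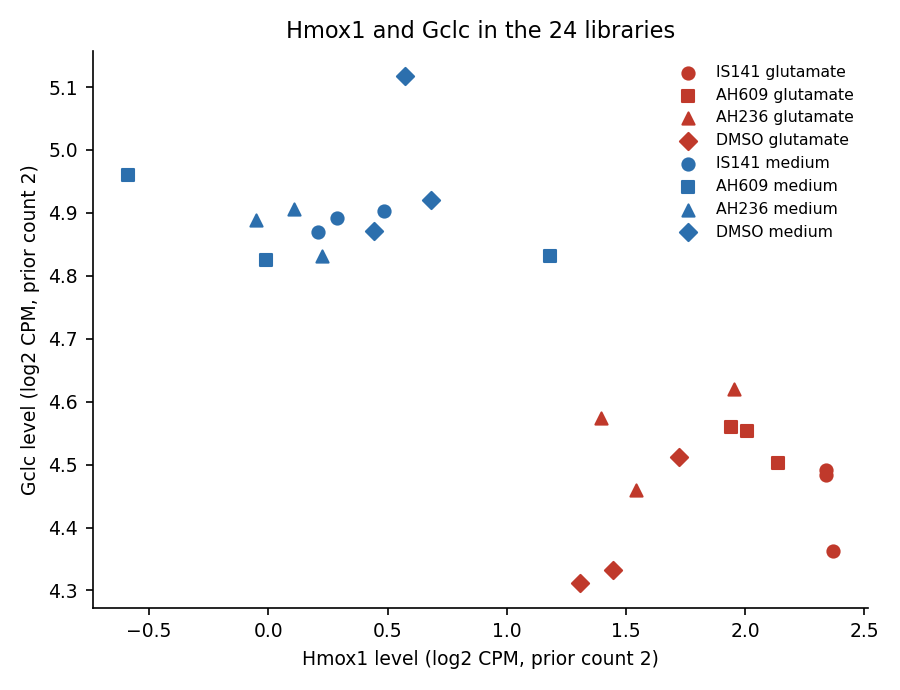
Hmox1 level (horizontal) against Gclc level (vertical) in the 24 libraries, both as log2 CPM with a prior count of 2, with glutamate libraries in red, medium libraries in blue and a symbol for each treatment. The 12 glutamate libraries form a group at lower right, apart from the 12 medium libraries at upper left.

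**Figure D5:**
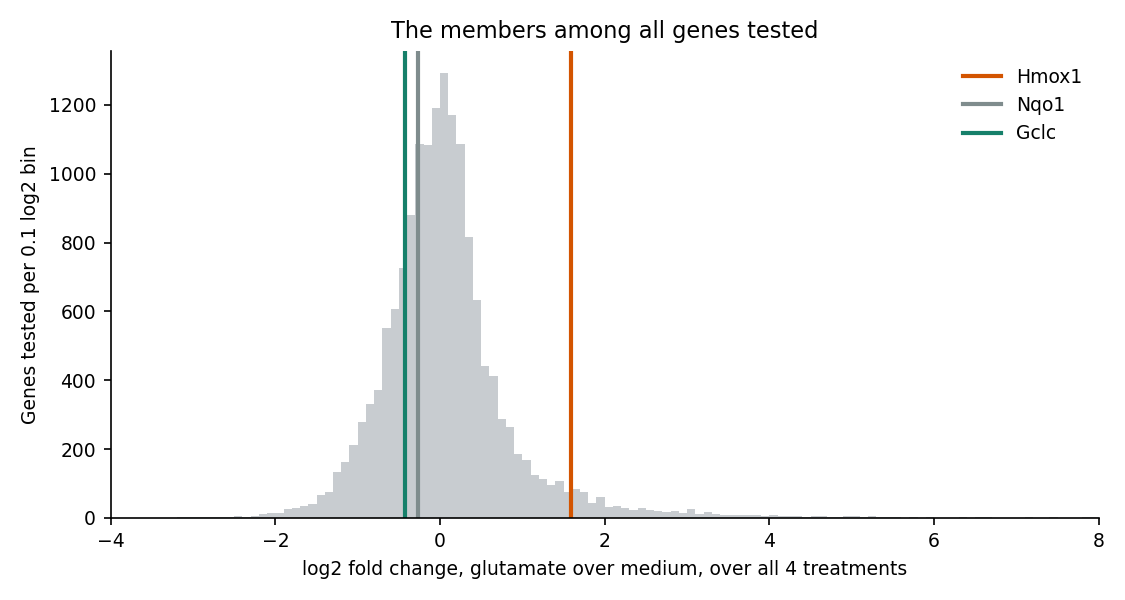
Number of genes per bin of 0.1 in the log2 fold change of glutamate over medium over all 4 treatments, for the 15908 genes tested, with lines at the values of Hmox1, Nqo1 and Gclc. Hmox1, at 1.59, lies in the upper tail, and Nqo1 (-0.26) and Gclc (-0.42) lie within the main body (1 gene above 8 is drawn in the last bin).

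Among 12167 other genes averaging 1 log2 CPM or more, those whose level followed Hmox1 most closely over the 24 libraries were ENSRNOG00000025179 (Pearson r = 0.935) and ENSRNOG00000020618 (r = 0.930). They rose with glutamate by less than Hmox1, at log2 fold changes of 0.41 (edgeR adjusted p = 2.83e-09) and 0.42 (adjusted p = 1.11e-16) over all 4 treatments. Closest to Gclc were ENSRNOG00000017210 (r = 0.958) and ENSRNOG00000004697 (r = 0.954), with log2 fold changes of -0.56 (adjusted p = 1.03e-11) and -0.57 (adjusted p = 1.96e-17). For Gclc 435 genes had an r above 0.9, for Hmox1 96, and for Nqo1 0, whose closest gene reached 0.768. These correlations describe libraries that share the split between media, and no file used here names these genes.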

How the data were processed

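RNA was measured in 24 libraries, grouped by their titles into 8 groups of 3, and a pair of AH236 glutamate libraries carries the title number 2, of which the later is called replicate 3. The authors deposited whole-number counts per Ensembl gene, not normalized. Per the submitters' processing notes, cutadapt 2.3, FastQC 0.11.8, STAR 2.7.8a, RSEM 1.3.3 and bcl2fastq were used with Rnor_6.0. RSEM estimates counts, so these may be rounded, and genes that share reads with similar or overlapping genes are uncertain. The sources used here state neither the annotation nor the strand setting. Counts were tested with edgeR 4.0.16 (R 4.3.3) in 1 quasi-likelihood fit of all 24 libraries, with filterByExpr (15908 genes), TMM scaling and 1 mean per group, without a replicate block. In each of 17 comparisons the Benjamini-Hochberg adjustment ran over all genes, with calls under 0.05. Each SE was derived from the log2 fold change and the test's p. DESeq2 1.42.0 and other settings were tried as alternatives. The members and lists were chosen with earlier results of these data known. The members were named in every comparison, and by rule up to 2 genes of the nearest pattern per member. The planned lists of other Nrf2 pathway genes and of cell markers gave no result, because 0 gene IDs matched a symbol.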

Additional observations from a re-analysis of the deposited data

How the results depend on the processing

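The rise of Hmox1 and the fall of Gclc with glutamate kept their direction and their call in all 4 treatments and over them, under every alternative run. Over all 4 treatments the log2 fold change ranged from 1.41 to 1.76 for Hmox1 and from -0.61 to -0.41 for Gclc, with the ends of smallest Hmox1 rise and largest Gclc fall under scaling by library totals. That scaling also brought the Nqo1 fall over all 4 treatments (-0.45) and Nqo1 with AH236 against DMSO in medium (-1.10) past the threshold, and turned Gclc for AH236 against IS141 (-0.0091) and against AH609 (-0.026), neither of which was called. Hmox1 for AH236 against IS141 passed the threshold with DESeq2 (-0.48), library totals (-0.53) and the compared groups alone (-0.47). It did not pass in any of the 13 fits with 1 library left out. Apart from leaving out libraries, 285 values kept their direction and side of the threshold, 5 passed it and 2 turned. With 1 library left out, 460 were kept, 31 turned, 2 passed and 2 were lost, and all that turned were uncalled. The ranges with 1 library left out were 0.77 to 0.99 for Hmox1 with IS141 in glutamate, whose call was lost without DMSO glutamate replicate 2 or 3. For Nqo1 they were -0.71 to 0.0073 for glutamate in DMSO, -0.24 to 0.39 for IS141, -0.33 to 0.30 for AH609 and -1.28 to -0.60 for AH236 in medium, -0.49 to 0.18 for IS141 and -0.37 to 0.10 for AH609 in glutamate. For the change of the glutamate effect on Nqo1 they were -0.48 to 0.23 for IS141, -0.47 to 0.25 for AH609 and 0.30 to 1.02 for AH236, and for AH609 against IS141 -0.18 to 0.11. For Hmox1 they were 1.36 to 2.40 for glutamate in AH609, 0.41 to 1.44 for the AH609 change of the glutamate effect, -0.90 to 0.13 for AH609 in medium, -0.023 to 0.30 for AH236 in glutamate, -0.48 to 0.034 for AH609 against IS141 and -0.51 to 0.0089 for AH236 against AH609. For Gclc they were -0.13 to -0.0072 for IS141, -0.15 to -0.022 for AH609 and -0.15 to -0.021 for AH236 in medium, 0.064 to 0.21 for the IS141 change of the glutamate effect, and -0.011 to 0.031 for AH236 against AH609. The causes were not tested. The title numbers are not stated to mark a shared culture, so they were not taken as pairs. For same-numbered libraries of the 2 media, 2 of 10 correlations of their deviations were above 0.1, with a range from -0.049 to 0.17. Deviations from means of 3 libraries cannot decide whether a culture was shared. A fit with the number as a block gave 1.60 for Hmox1 and -0.43 for Gclc over all 4 treatments and changed no call. DESeq2 gave no adjusted p for some low-count members, which are left out. The comparison of Gclc with Gclm was not run, because the Gclm row held no counts. Nqo1 had 11 to 47 counts a library, which limits its precision.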
